A study of Mus musculus with 2 samples.

Results

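Plasmacytoid dendritic cells (pDCs) were examined in 2 single-cell RNA libraries of mouse liver immune cells. They were chosen by a gate on UMI counts, a UMI (unique molecular identifier) being a tag that counts 1 captured RNA molecule. Kept cells had 500 UMIs or more, 300 genes or more, and mitochondrial UMIs of no more than 10%. It was called a pDC if Siglech had at least 1 UMI, at least 3 of the 6 genes Ccr9, Klk1, Cox6a2, Runx2, Tcf4 and Grm8 were detected, and Cd79b, Cd3e, Ncr1 and Csf3r (B, T, NK and neutrophil genes) were all at 0. The gate held 658 of 35399 kept cells, 294 of 17632 in the untreated library and 364 of 17767 in the ConA library.

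Both libraries came from wild-type C57BL/6J mice. One was made from mice that received low doses of concanavalin A (ConA), a jack bean lectin and T cell mitogen, by vein at 10 mg/kg, 1 dose in each of 3 successive weeks; the submitters describe the schedule as a tolerance model. The other came from untreated mice of matched age. Liver leukocytes were enriched on a Ficoll gradient, sorted for CD45 and sequenced with 10x Genomics 3' chemistry; the sources used here do not say how many mice contributed to a library, nor the mice's ages. There is 1 library per group and so no replicate check: treatment, animals and library cannot be told apart, no test was made, and 95% intervals cover counting error only.

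pDCs are bone marrow-derived dendritic cells built around the transcription factor TCF4 (E2-2). They sense viral RNA and DNA inside endosomes through the Toll-like receptors TLR7 and TLR9, signal through MyD88 and IRF7, and can release large amounts of type I interferon. Cells that receive interferon through IFNAR activate transcription factors, STAT2 and IRF9 among them, that bind interferon-stimulated response elements in promoters and switch on antiviral genes. In the liver, pDCs are few and have been linked both to antiviral defence and to the restraint of T cell responses.

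The libraries held 71289226 (untreated) and 73589264 (ConA) UMIs in 18088 and 18762 barcodes. The median pDC had 4225.5 UMIs and 2108.5 genes in the untreated library and 5278.5 UMIs and 2472 genes in the ConA library, against medians of 3128 and 3471 UMIs over all kept cells. Mitochondrial UMIs made up a median 2.45% and 2.28% of a pDC's UMIs. The libraries shared 82 barcodes. Of the pDCs, 1 untreated and 1 ConA cell carried a barcode that was also found in the other library, before filtering there, and no barcode was in both gates. Doublets were not removed in the main values, beyond the 4 genes that the gate excludes; a doublet caller marked 32 untreated and 49 ConA pDCs, and values without them are given where they differ.

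pDCs made up 1.67% (Clopper-Pearson 95% interval 1.48 to 1.87) of the kept untreated cells and 2.05% (1.85 to 2.27) of the kept ConA cells. The ConA share was 1.23 times the untreated one (1.05 to 1.44). Since cells are gated on detected genes, the greater depth of the ConA pDCs moves with this share. After every cell had been thinned to 1000 UMIs before gating, the gate held 345 and 426 cells (log2 ratio of the shares 0.26, against 0.30). With cells left out that had a UMI of any of 8 further genes of other cell types (Cd79a, Ms4a1, Trac, Cd3g, Cd3d, C1qa, Klrb1c and Alb), an alternative chosen after the data were seen, 198 and 197 cells remained and the log2 ratio was -0.02.

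The gated cells carried the genes that define pDCs elsewhere. Of 34 pDC genes that the gate did not use, 34 had a higher level in the gated cells than in the cells outside the gate in both libraries, and 22 were at least 5 times higher in both. All levels are UMIs summed over the cells of a library and expressed as CPM, the count divided by those cells' total and multiplied by 1000000, and such multiples are taken after adding 5 CPM to both levels. Irf8, a transcription factor needed for dendritic cell development, stood at 3314 CPM in untreated and 3307 CPM in ConA pDCs, against 344 and 345 CPM outside the gate. Pacsin1, an endocytic adaptor, stood at 576 and 538 CPM, Spib, an Ets-family factor, at 262 and 285 CPM, and Bst2, the tetherin antigen used to stain pDCs, at 4328 and 2988 CPM. Because these cells were chosen by genes that go with these, the values describe the gate and test nothing.

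The gate's own genes were Siglech (1750 CPM in the untreated and 1836 in the ConA library), Tcf4 (5178 and 5751), Runx2 (2593 and 3148), Grm8 (1579 and 1661), Cox6a2 (1294 and 1083), Ccr9 (1238 and 1016) and Klk1 (1415 and 519). All but the tissue kallikrein Klk1 differed between the libraries by far less than 2-fold. The 15 genes outside the gate with the highest pDC level relative to all kept cells outside it, by the lower of both libraries' ratios, were Pdzd4, Zc3h12c, Lrp8, Paqr5, Cd300c, Ctsl, P2ry14, Smim5, Lair1, Slc41a2, Ccnd1, Fmnl2, Upb1, Cd209d and Ptprf. Of these, 2 were also high in a conventional dendritic cell gate. Ccnd1 stood there at 841 and 456 CPM (1187 and 1066 CPM in pDCs) and Fmnl2 at 463 and 618 CPM (944 and 1230 CPM in pDCs). The others lay further below their pDC level there. With 5 CPM added to each level, Pdzd4, a PDZ-domain protein, was 19.4 and 18.2 times higher in pDCs than outside the gate, and Ptprf, a receptor phosphatase, 16.3 and 13.1 times. None of these 15 differed 2-fold between the libraries, as the plot of identity genes shows.

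**Figure D1:**
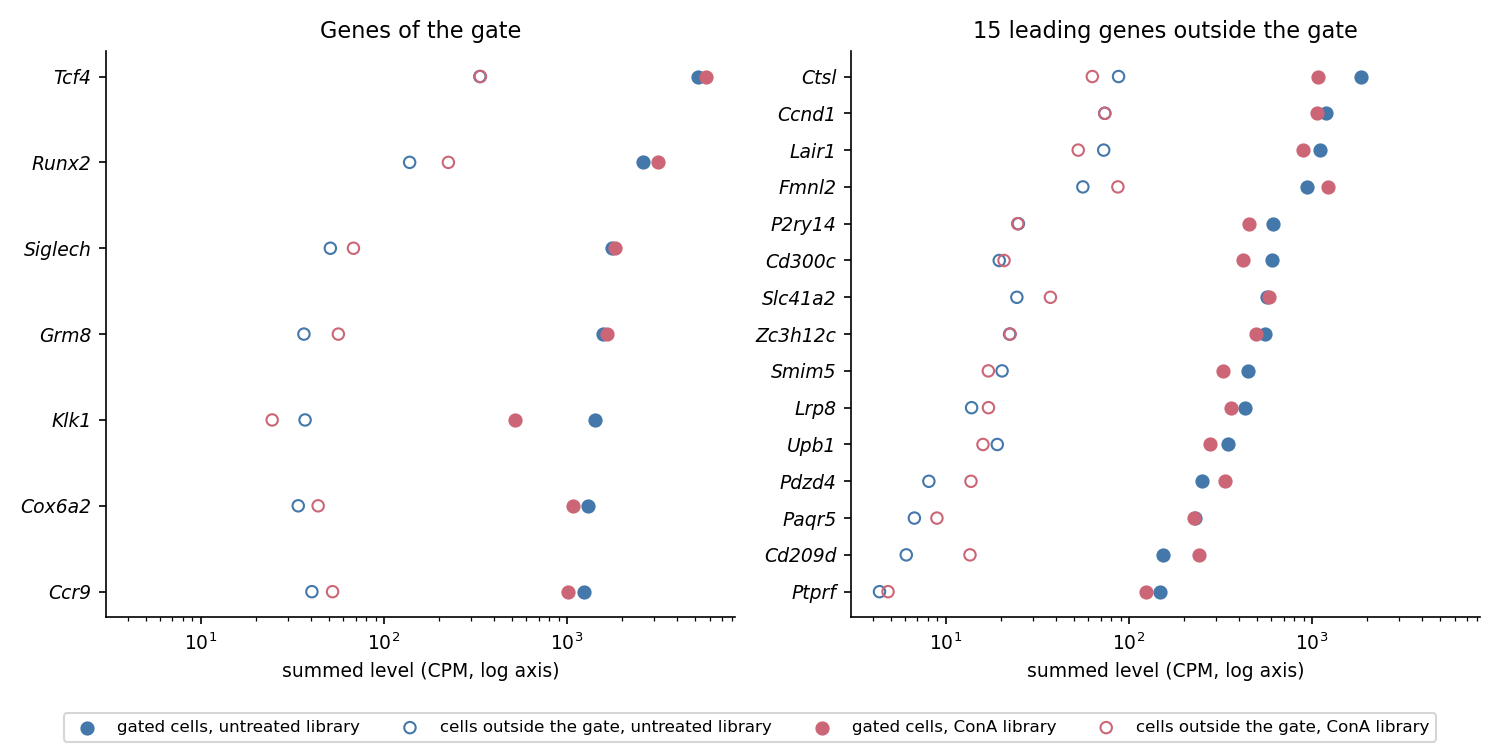
Summed level (CPM, log axis) of the 7 positive gate genes (left) and of the 15 leading genes outside the gate (right), in gated cells (filled circles) and in all kept cells outside the gate (open circles) of the untreated (blue) and ConA (red) libraries. Filled circles of both colours lie furthest apart for Klk1, at 1415 CPM in the untreated and 519 CPM in the ConA library. Ctsl, at 1849 and 1084 CPM, and Cd209d, at 153 and 240 CPM, come next.

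At the edge of the gate, cells with 3 of the 6 markers (33 untreated, 27 ConA) had 646 and 598 CPM of Siglech, and cells with 2 of 6 (45 and 40), which fall outside, had 356 and 432 CPM. Ly6d, a surface antigen of pDCs and B cells, was at 688 and 1475 CPM just inside and 175 and 153 CPM just outside, while Lyz2, a monocyte and macrophage gene, was at 505 and 129 CPM inside and 5233 and 1375 CPM outside. Another 288 untreated and 357 ConA cells met the positive criteria but had a UMI of an excluded gene, most often Cd79b (162 and 204 cells). They count among the cells outside the gate, and their median depth was 6022 and 7129 UMIs. A second gate built without Siglech or the 6 markers, from 10 other pDC genes, held 329 and 381 cells, of which 253 and 322 were also in the main gate.

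Markers of other cell types were counted in the gated cells. The 4 neutrophil markers other than Csf3r summed to 1367 CPM in untreated and 1359 CPM in ConA pDCs, with a median of 6 and 2 UMIs per cell, against 22681 and 7270 CPM outside the gate. Red cell markers summed to 1008 and 10592 CPM, monocyte and macrophage markers to 584 and 382 CPM, the other B markers to 73.8 and 60.4 CPM and the other T markers to 27.2 and 79.6 CPM. Plasma cell markers summed to 17.2 and 104 CPM, of which Jchain made up 5.02 and 87.9 CPM, endothelial markers to 133 and 42.7 CPM, hepatocyte markers to 38.7 and 9.89 CPM, the other NK markers to 20.8 and 14.6 CPM and basophil markers to 0.717 and 12.5 CPM. The genes Cd79b, Cd3e, Ncr1 and Csf3r were at 0 by the gate and Stab2 in both libraries. Markers of conventional dendritic cells summed to 204 and 225 CPM (cDC1) and 587 and 603 CPM (cDC2). Unlike the neutrophil markers, they were higher than outside the gate, where they summed to 37.7 and 57.5 CPM (cDC1) and 401 and 215 CPM (cDC2). Clec9a (138 and 111 CPM) and Cadm1 (63.1 and 108 CPM) made up nearly all of the cDC1 sum. Xcr1, Itgae and Tlr3 were each at 2.60 CPM or less, below their level outside the gate. Of the cDC2 markers, Itgam (12.9 and 16.7 CPM) was also below its level outside (169 and 93.5 CPM). In total 5 untreated and 13 ConA gated cells were rich in other types' markers, and 1 ConA cell alone held 1707 neutrophil-marker UMIs. The level of S100a8 and S100a9 in pDCs was 6.16% and 19.6% of that over all kept cells, and 6.18% and 6.63% without those cells; this pair was used to estimate the free RNA taken up with each cell. Without those cells Igkc gave 22.5% and 9.34% and hemoglobin 9.68% and 9.39%, so the estimate depends on the gene.

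Of 4155 genes with at least 50 CPM in pDCs of 1 library, 113 (2.72%) were at least 2-fold lower and 37 (0.89%) at least 2-fold higher in the ConA library. The fold used here is taken after adding 5 CPM to both levels, which pulls low genes toward no difference, and the median log2 ratio over the 4155 genes was 0.06. For single genes the plain log2 ratio of the UMI sums, ConA over untreated and scaled to each library's pDC total, is given with its exact Poisson interval. The interval lay below 0 for 734 genes (17.7%) and above 0 for 947 (22.8%).

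Genes that interferon switches on were lower in pDCs of the ConA library throughout. All 49 genes of the interferon-stimulated list were measured (at least 10 CPM in 1 library); 45 were at least 2-fold lower, 0 were 2-fold higher, and the list's median log2 ratio was -1.78. Over the 8853 genes at that level, 2.5% were 2-fold lower, 1.56% were 2-fold higher and the median was 0.05. The same values over all genes stand beside the counts of every list below. The interval lay below 0 for all 49 members, against 11.9% of the 8853 genes. Together the 49 genes made up 2.13% of the untreated pDCs' UMIs and 0.866% of the ConA pDCs' UMIs. The list's members supplied 33 of the 113 lower genes, which is 29.2% of those genes and 67.3% of the list.

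Effector genes of the interferon response were lower in ConA pDCs. Isg15, a ubiquitin-like protein that is attached to viral and host proteins, had 1076 UMIs (771 CPM) in untreated and 133 UMIs (69.2 CPM) in ConA pDCs, a log2 ratio of -3.48 (-3.75 to -3.22). Slfn5, a Schlafen-family protein, had 864 UMIs (619 CPM) and 104 UMIs (54.1 CPM), a log2 ratio of -3.52 (-3.82 to -3.22). Cells outside the gate differed in the same direction, from 1035 to 72.7 CPM for Isg15 and from 780 to 53.8 CPM for Slfn5. Oasl2 and Oasl1, relatives of the oligoadenylate synthetases that sense double-stranded RNA, showed the same pattern. Oasl2 stood at 219 and 24.5 CPM (log2 ratio -3.16, -3.64 to -2.71) and Oasl1 at 101 and 14.1 CPM (-2.85, -3.50 to -2.24). Ifi27l2a stood at 1614 and 252 CPM (-2.68, -2.82 to -2.53), Ifi44 at 307 and 45.3 CPM (-2.76, -3.11 to -2.43), and Ifitm3, which blocks viral entry, at 458 and 67.1 CPM (-2.77, -3.05 to -2.50).

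Among the other lower genes, Phf11a, Ifi213 and Ifit3b belong to families of near-identical copies, so that reads may be divided between copies with uncertainty. Phf11a, a PHD-finger gene, had 78 and 6 UMIs (55.9 and 3.12 CPM). Ifi213, of the PYHIN family of nucleic acid sensors, had 156 and 34 UMIs (112 and 17.7 CPM). Ifit3b, next to its copy Ifit3, had 17 and 0 UMIs, so that it was at least 7.80-fold lower when 3 counts are taken as the floor. Lgals3bp, a secreted galectin-binding glycoprotein to which this limit does not apply, was also lower, at 190 and 33.3 CPM.

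Short stretches before the RefSeq start of 4 of these genes are shown because each holds a match to the interferon-stimulated response element, spelled as GAAA, any 2 bases and again GAAA, within the window searched. Each is the 160 bases before the annotated gene start in RefSeq's GRCm38.p6 table, written 5′ to 3′ on the gene's strand, with the match in capitals. The deposited counts were made on another build, so these positions are RefSeq's only. They are chr11:82951942-82952101 (plus strand) for Slfn5, chr4:156200819-156200978 (minus strand) for Isg15, chr14:59297523-59297682 (minus strand) for Phf11a and chr1:173599273-173599432 (minus strand) for Ifi213.
Slfn5: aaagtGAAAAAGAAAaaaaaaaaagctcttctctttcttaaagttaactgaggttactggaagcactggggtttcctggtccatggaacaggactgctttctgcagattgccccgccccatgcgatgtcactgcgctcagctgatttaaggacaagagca
Isg15: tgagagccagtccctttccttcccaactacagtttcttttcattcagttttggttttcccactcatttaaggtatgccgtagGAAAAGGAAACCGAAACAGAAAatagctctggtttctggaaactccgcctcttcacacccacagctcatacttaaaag
Phf11a: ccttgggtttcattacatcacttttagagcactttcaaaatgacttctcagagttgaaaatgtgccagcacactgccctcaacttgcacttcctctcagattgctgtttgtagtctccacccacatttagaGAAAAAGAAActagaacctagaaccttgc
Ifi213: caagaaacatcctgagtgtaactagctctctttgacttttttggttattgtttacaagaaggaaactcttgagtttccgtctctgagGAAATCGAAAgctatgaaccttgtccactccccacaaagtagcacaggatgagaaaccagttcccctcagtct
In Isg15, 3 overlapping matches begin 78, 72 and 66 bases before the start; in Phf11a the match begins 29 bases before it, in Ifi213 73 bases and in Slfn5 155 bases.

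Searched on both strands from 250 bases before to 50 after the start, the motif was found in 58.3% of the interferon-stimulated genes that the table holds (21 of 36), in 63.2% of the interferon-gamma-induced genes (12 of 19) and in 31.3% of the MHC class I pathway genes (5 of 16). These shares count a gene if any of its promoters held the motif. Counted in this way, it was found in 3.99% of all 27025 genes of the table. The share was 4.43% of the 3320 genes at 50 CPM or more in pDCs that the table holds. Counted by promoter, it was found in 3.44% of all 32851. No heat shock gene (0 of 11) and 2 of 29 pDC genes outside the gate held it. Of the 12 genes with the largest lower ratio, 11 were in the table and 4 held the motif, and of the 12 with the largest higher ratio 7 were in the table and 0 held it. A match describes the letters and not a bound site.

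Only 4 of the 49 interferon-stimulated genes were not 2-fold lower. Bst2 was at 4328 and 2988 CPM (log2 ratio -0.53, -0.59 to -0.48) and Ly6e, a surface antigen, at 1888 and 1505 CPM (-0.33, -0.40 to -0.25). Samhd1, a nucleotide hydrolase that limits retroviruses, stood at 456 and 232 CPM (-0.98, -1.16 to -0.80), and Slfn8 at 127 and 72.8 CPM (-0.80, -1.13 to -0.47). Bst2 differed far less in pDCs than in cells of a B gate (304 and 69.9 CPM) or of a conventional dendritic cell gate (955 and 171 CPM). Ly6a (Sca-1), in contrast, stood at 2853 and 853 CPM in pDCs, a log2 ratio of -1.74 (-1.83 to -1.66).

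The same list was lower in the other cells as well, and by more. Its median log2 ratio was -2.48 in B-gate cells (2192 and 1965 cells), -2.77 in conventional dendritic cells (97 and 167 cells) and -2.59 in all cells outside the pDC gate, where the medians over all genes were 0.02, 0.11 and 0.09. The pDC ratio was nearer to 0 than the B-gate ratio for 41 of the 49 genes, and nearer than the conventional dendritic cell ratio for 44. In levels, the order of the cell types was not the same in both libraries. In the untreated library the median log2 ratio of the pDC level to that of conventional dendritic cells was -0.45 over the 49 genes and in the ConA library it was 0.46; against B-gate cells it was -0.10 and 0.36. Irf7, the interferon-inducible regulator that pDCs hold ready for interferon production, is an example. It stood at 752 and 149 CPM in pDCs (log2 ratio -2.33, -2.53 to -2.14), at 216 and 12.2 CPM in B-gate cells and at 588 and 33.5 CPM in conventional dendritic cells.

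**Figure D2:**
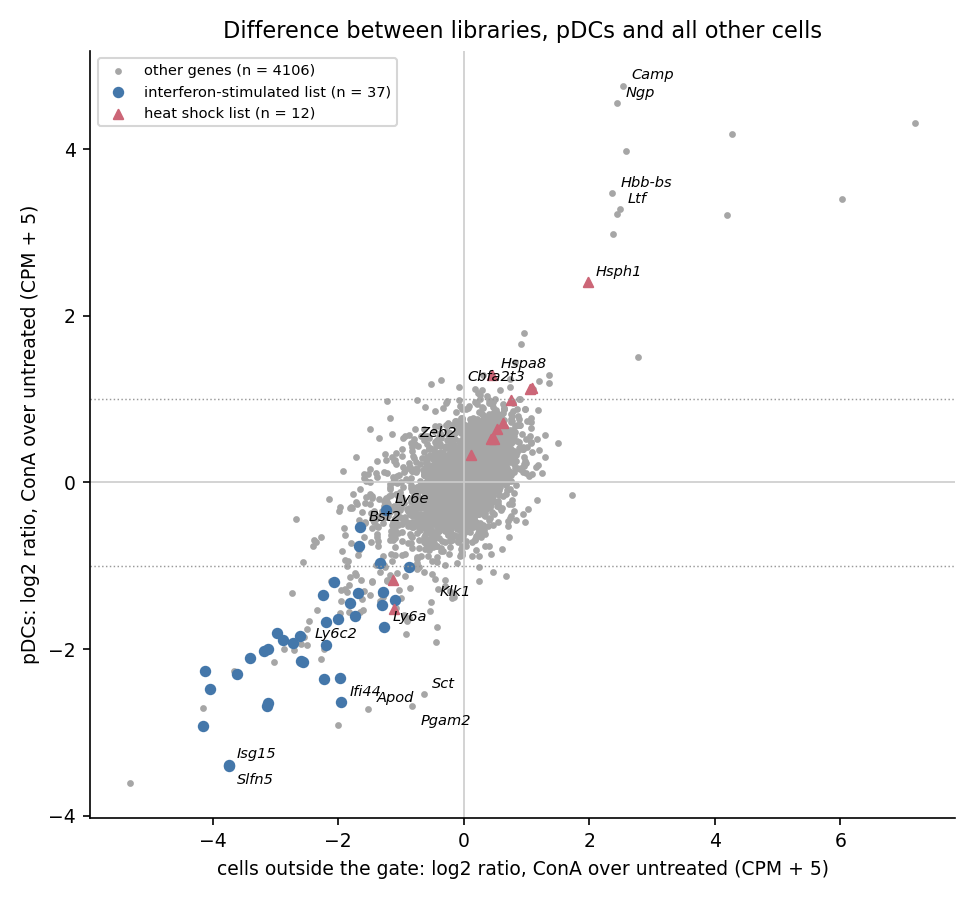
Log2 ratio of ConA over untreated (CPM plus 5) for 4155 genes in pDCs (vertical axis) against all kept cells outside the gate (horizontal axis), with 37 interferon-stimulated genes in blue and 12 heat shock genes in red; dotted lines mark 2-fold. The interferon-stimulated genes lie in the lower left, with Bst2 and Ly6e nearest to 0 on the vertical axis, and Pgam2, Apod and Sct lie low on the pDC axis and nearer to 0 on the other.

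The difference ran through nearly the whole pDC population rather than through a few cells. After thinning each cell to 1000 UMIs, which left out 13 untreated and 9 ConA cells that were shallower, the median pDC had 21 UMIs of the 49 genes in the untreated and 8 in the ConA library (5th to 95th percentile 10 to 33 and 2 to 15). Without thinning the medians were 20.9 and 7.75 per 1000 UMIs. Leaving out the abundant surface antigens Bst2, Ly6a and Ly6e, the median was 11 and 3 UMIs. Of 281 untreated pDCs, 189 (67.3%) had at least 10 UMIs of these 46 genes and 0 had none. Of 355 ConA pDCs, 9 (2.54%) had at least 10 and 27 had none.

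Isg15 was detected in 42.7% of thinned untreated and 2.82% of thinned ConA pDCs, and in 75.9% and 11.8% before thinning. In thinned B-gate cells, whose median depth was 2895 and 3292 UMIs, the shares were 16.8% and 1.49%. The share was low in both cell types of the ConA library. Irf7 was detected in 50.2% and 13.0% of thinned pDCs and Bst2 in 89.3% and 85.1%.

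A few ConA pDCs stood apart from the other ConA pDCs, a group picked after the values were seen and described without a test. Among 355 ConA pDCs, 6 (1.69%, 0.623 to 3.64) had at least 20 UMIs of the 46 genes per 1000, ranging from 23 to 32, and only 3 other ConA cells lay between 10 and 19. In the untreated library 26 of 281 cells (9.25%, 6.13 to 13.3) reached 20, as the upper end of a continuous spread with a median of 11 and 163 cells between 10 and 19. The 6 ConA cells held 76 of the library's pDC Isg15 UMIs (57.1%), 43 of its Slfn5 UMIs (41.3%) and 23 of its Oasl2 UMIs (48.9%); these genes are among the 46 that chose the cells, so the shares describe the choice. Their Klk1 level was 451 CPM against 2185 CPM in the 26 untreated cells. They had a median of 7488 UMIs and 1309 CPM of Siglech. Marker UMIs of other types in these 6 cells were 157 for red cells, 36 endothelial (28 in the 26 untreated cells), 21 cDC2, 17 neutrophil, 10 cDC1, 8 monocyte and macrophage, 4 plasma cell, 2 B and 2 T; their part was not tested. Among all ConA pDCs the variance-to-mean ratio of thinned Isg15 UMIs over cells was 3.71, against 1.69 in the untreated library; the median over 3244 genes was 1.03 and 1.04.

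**Figure D3:**
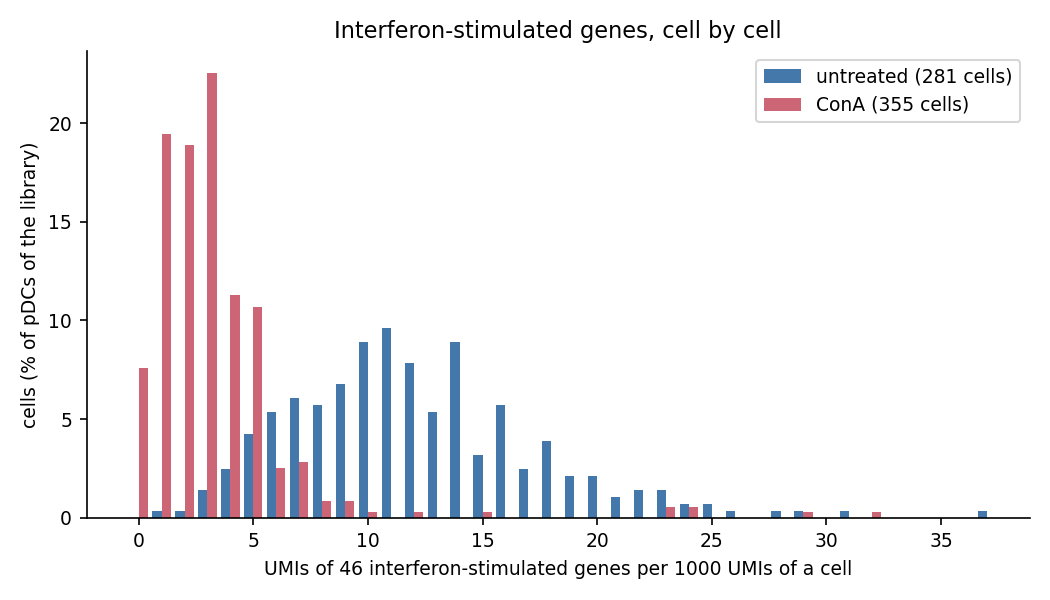
Share of pDCs (percent of the library's pDCs with at least 1000 UMIs, bars) by the number of UMIs of 46 interferon-stimulated genes per 1000 UMIs, in the untreated (blue, 281 cells) and ConA (red, 355 cells) libraries. ConA cells gather around a median of 3 and untreated cells around 11, and 6 ConA cells lie between 23 and 32.

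Transcripts of the type I interferons Ifna and Ifnb1 were at or below the floor of 3 counts. The 14 Ifna genes had 0 UMIs in both libraries, and Ifnb1 had 2 UMIs in untreated and 0 in ConA pDCs. A count of 0 allows up to 2.15 and 1.56 CPM and up to 1.02% and 0.824% of the pDCs with a UMI, which limits cells with a captured molecule and not cells that express the gene. Ifng, the type II interferon, had 1 and 8 UMIs. None of the 21 interferon genes of the list reached 10 CPM.

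Of the 25 measured genes of endosomal Toll-like receptor sensing, Irf7 was the only one past 2-fold, and the list's median log2 ratio was -0.11. Tlr7, the RNA receptor, stood at 199 and 142 CPM (log2 ratio -0.49, -0.74 to -0.25), and Tlr12, whose product senses profilin of parasites, at 75.3 and 51.5 CPM (-0.55, -0.96 to -0.14). Tlr9, the DNA receptor, had only 8 and 9 UMIs. Unc93b1, which carries these receptors to endosomes, stood at 997 and 790 CPM and the adaptor Myd88 at 60.9 and 32.3 CPM (-0.92, -1.41 to -0.43). Genes of the platform that activates IRF5 lay on the other side. Tasl stood at 63.1 and 96.3 CPM (0.61, 0.24 to 0.99) and its partner Slc15a4 at 81.0 and 116 CPM (0.52, 0.19 to 0.86), while Irf5 itself was at 133 and 134 CPM.

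Of 11 measured cytosolic sensing genes, 4 were 2-fold lower and 1 higher, with a median of -0.17. The RNA sensor genes Ifih1 (MDA5; 86.7 and 19.8 CPM) and Rigi (27.2 and 10.4 CPM), the regulator Dhx58 (67.4 and 14.1 CPM) and the Z-nucleic acid sensor Zbp1 (74.5 and 17.2 CPM) were the lower ones, and 3 of these are also on the interferon-stimulated list. The adaptor Mavs was the higher one, from 4 to 24 UMIs. Sting1 stood at 64.5 and 76.0 CPM and Aim2 at 143 and 126 CPM. Of 16 interferon receptor signalling genes, 3 were past 2-fold, among them Stat2 (441 and 170 CPM) and Usp18 (183 and 48.9 CPM), which are also on the interferon-stimulated list. The receptor chains did not share this: Ifnar1 was at 177 and 152 CPM and Ifnar2 at 628 and 795 CPM (log2 ratio 0.34, 0.22 to 0.46).

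Interferon-gamma-induced genes were lower in a more uneven way: 5 of 19 measured genes were 2-fold lower, 0 were higher, and the median was -0.56. The lower members were the immunity-related GTPases Iigp1 (167 and 46.8 CPM) and Irgm1 (99.6 and 30.2 CPM), the T cell GTPase Tgtp2 (31.5 and 7.80 CPM), the guanylate-binding protein Gbp6 (63.1 and 13.0 CPM) and the chemokine Cxcl10 (24 and 4 UMIs). Several have close copies, and their reads are uncertain for the same reason as above. Irf1, in contrast, stood at 354 and 309 CPM and Socs1 at 26.5 and 26.5 CPM. In B-gate cells the list's median was lower (-1.10), while it was -0.62 in the conventional dendritic cell gate and -0.58 outside the pDC gate.

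Every one of 18 MHC class I pathway genes was lower, by less than 2-fold except for 1, with a median log2 ratio of -0.58; over all genes 44.3% were lower. H2-T22 was the one past 2-fold (254 and 114 CPM). The list's median was much the same in other cells, at -0.58 in the B gate, -0.53 in the conventional dendritic cell gate and -0.56 outside the pDC gate. B2m, the light chain, stood at 3075 and 1921 CPM (-0.68, -0.74 to -0.62), H2-K1 at 2544 and 1843 CPM, the peptide transporter Tap1 at 176 and 100 CPM and the transactivator Nlrc5 at 177 and 101 CPM. MHC class II and costimulation genes stood elsewhere: 0 of 15 were past 2-fold and the median was 0.06. Cd74, the invariant chain, was at 4493 and 4738 CPM, H2-Ab1 at 594 and 691 CPM, and Cd86 at 37.3 and 27.6 CPM. Cd80 and Cd40, costimulatory molecules of activated dendritic cells, had only 3 to 17 UMIs in any library.

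The pDC genes that the gate did not use were mostly close to equal: 1 of 33 measured was 2-fold lower, 0 were higher, and the median log2 ratio was -0.19. The lower one was Ly6c2, a surface antigen, at 3000 and 774 CPM (-1.95, -2.04 to -1.87); it has a close copy, so its reads are uncertain. Ctsl, a lysosomal protease, stood at 1849 and 1084 CPM (-0.77, -0.85 to -0.69), Plac8 at 3160 and 1919 CPM and Ly6d at 2588 and 1687 CPM. On the higher side stood Flt3, the receptor for the growth factor that sustains dendritic cells, at 159 and 249 CPM (0.64, 0.41 to 0.88), and the receptor phosphatase Ptprs at 354 and 480 CPM. With the estimated free RNA subtracted the list's median was -0.01, and -0.14 with the marker-rich cells also left out.

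A list of transcription factors leaned the other way. It held factors of pDCs, of conventional dendritic cells (such as Zbtb46) and general ones (such as Stat3). Irf8 and Spib, whose levels are given above, are on it and were close to equal. Of 28 measured, 22 were higher in the ConA library, 1 by 2-fold, and the median was 0.36; over all genes 55.7% were higher. The list's median was 0.37 in the conventional dendritic cell gate, 0.20 in the B gate and 0.23 outside the pDC gate. Cbfa2t3 (Eto2), a corepressor that works with TCF4 in pDCs, was the one past 2-fold, at 191 and 428 CPM (1.16, 0.96 to 1.37). It was detected in 15.7% and 35.5% of thinned pDCs, against 6.93% and 8.32% of thinned B-gate cells and 49.5% and 51.5% of thinned conventional dendritic cells, and in 44.6% and 72.5% of pDCs before thinning. Runx1 stood at 222 and 412 CPM (0.89, 0.70 to 1.09), Mef2c at 884 and 1360 CPM (0.62, 0.52 to 0.72) and Klf4 at 44.4 and 90.5 CPM (1.03, 0.60 to 1.47). Zeb2, which holds pDC identity against that of cDC1, stood at 984 and 1367 CPM in pDCs but at 863 and 483 CPM outside the gate. Ikzf2 (Helios) lay on the lower side, at 125 and 89.0 CPM (-0.50, -0.81 to -0.18).

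Klk1 stood apart from the other identity genes. It was used by the gate, so its difference is a description: 1975 UMIs (1415 CPM) in untreated and 998 UMIs (519 CPM) in ConA pDCs, a log2 ratio of -1.45 (-1.56 to -1.34). It was detected in 70.4% and 56.0% of the gated cells, and in 53.7% and 28.7% after thinning. In cells of the second gate, which does not use it, its level was 1148 and 466 CPM. Klk1b27, a neighbouring kallikrein of near-identical sequence whose reads cannot be cleanly parted from it, stood at 158 and 57.8 CPM.

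Beyond the gate, some genes at least 5 times higher in pDCs than in other cells of at least 1 library (CPM plus 5) differed between the libraries. A gene could enter through the library where it was high, so nothing is read from how many were lower. Among the lower ones, 3 were among the 12 genes with the largest ratio and are on no interferon list. Pgam2, the muscle form of the glycolytic phosphoglycerate mutase, had 328 and 62 UMIs (235 and 32.3 CPM; -2.87, -3.28 to -2.47). It was detected in 17.4% and 2.25% of thinned pDCs, and outside the gate it was at 6.59 and 1.59 CPM. Apod, a lipid-carrying apolipoprotein, had 120 and 17 UMIs (-3.28, -4.11 to -2.54), and Sct, the precursor of the hormone secretin, had 80 and 11 UMIs (-3.32, -4.38 to -2.41). Both passed 5 times in the untreated library alone: Apod was 5.88 and 2.56 times higher in pDCs, and Sct 7.72 and 2.06 times. The conventional dendritic cell gate was also lower for both, with log2 ratios (CPM plus 5) near those of pDCs. Apod stood there at 31.9 and 0 CPM (-2.88, against -2.72 in pDCs). Sct stood there at 19.9 and 0 CPM (-2.32, against -2.54), and Pgam2 at 2.66 and 0 CPM (-0.61, against -2.69). Among the other lower ones, named after their values were seen, were Kdr, a receptor for vascular endothelial growth factor (123 and 36.4 CPM), the protein kinase inhibitor Pkib (761 and 280 CPM) and Ergic1 (254 and 109 CPM), which was 7.54 and 2.81 times higher in pDCs. In the conventional dendritic cell gate Kdr stood at 17.3 and 0.743 CPM, Pkib at 361 and 210 CPM and Ergic1 at 38.5 and 38.7 CPM. Kdr is also on the endothelial marker list. Its member Stab2 was at 0 in pDCs of both libraries, and at only 0.536 and 2.15 CPM outside the gate. Its member Clec4g had 14 and 12 UMIs in pDCs (10.0 and 6.24 CPM), against 0.970 and 0.730 CPM outside. The part of endothelial RNA was not tested. On the higher side, by over 2-fold, stood Srl (27.2 and 73.9 CPM), which encodes the calcium-binding protein sarcalumenin, and Sema4c (25.1 and 59.8 CPM), a semaphorin.

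Higher levels in the ConA library included heat shock genes: of 13 measured, 4 were 2-fold higher and 2 were 2-fold lower, with a median log2 ratio of 0.69. Over all genes at 10 CPM or more, 1.56% were 2-fold higher and 2.5% were 2-fold lower. Hsph1, a chaperone of the HSP110 family, had 10 and 114 UMIs (7.17 and 59.3 CPM; 3.05, 2.12 to 4.15). Hspa8, the constitutive HSC70, stood at 320 and 791 CPM (1.31, 1.15 to 1.46) and was detected in 26.7% and 54.6% of thinned pDCs. The cochaperones Stip1 (44.4 and 104 CPM) and Chordc1 (34.4 and 80.7 CPM) were the other two past 2-fold, and Hsp90aa1 stood at 168 and 338 CPM. Hspa1a had 0 and 15 UMIs and Hspa1b 0 and 16 UMIs, at least 3.63-fold and 3.87-fold higher at the 3-count floor; they are near-identical copies. Those on the lower side were the cold-induced RNA-binding proteins of the list, Cirbp (158 and 52.0 CPM; -1.61, -1.96 to -1.26) and Rbm3 (487 and 214 CPM; -1.18, -1.36 to -1.01). The list's median in B-gate cells was 0.45, in conventional dendritic cells 0.54 and outside the gate 0.49.

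Of the 12 genes with the largest higher ratios, 4 depended strongly on a few cells rich in markers of other types. A single ConA cell held 343 of 401 UMIs of Camp, 297 of 345 of Ngp and 72 of 97 of Ltf, all granule proteins of neutrophils, and 1 ConA cell held 3071 of the 12613 UMIs of Hbb-bs, a hemoglobin chain with a near-identical copy. Without the 13 marker-rich ConA cells the ConA level was 31.3 CPM for Camp (209 CPM with them), 25.8 for Ngp (180), 13.2 for Ltf (50.5) and 2714 for Hbb-bs (6563), against 2.87, 2.87, 0.717 and 585 CPM in all untreated pDCs. Hsph1 was at 58.7 CPM in the ConA library without those cells. Map2k6, a kinase upstream of p38, stood at 16.5 and 69.2 CPM, the tubulin regulator Stmn1 at 13.6 and 54.1 CPM, the kinesin Kif21b at 16.5 and 53.6 CPM, the costimulatory receptor Cd28 at 24.4 and 66.6 CPM and the immunophilin Fkbp4 at 31.5 and 81.7 CPM.

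**Figure D4:**
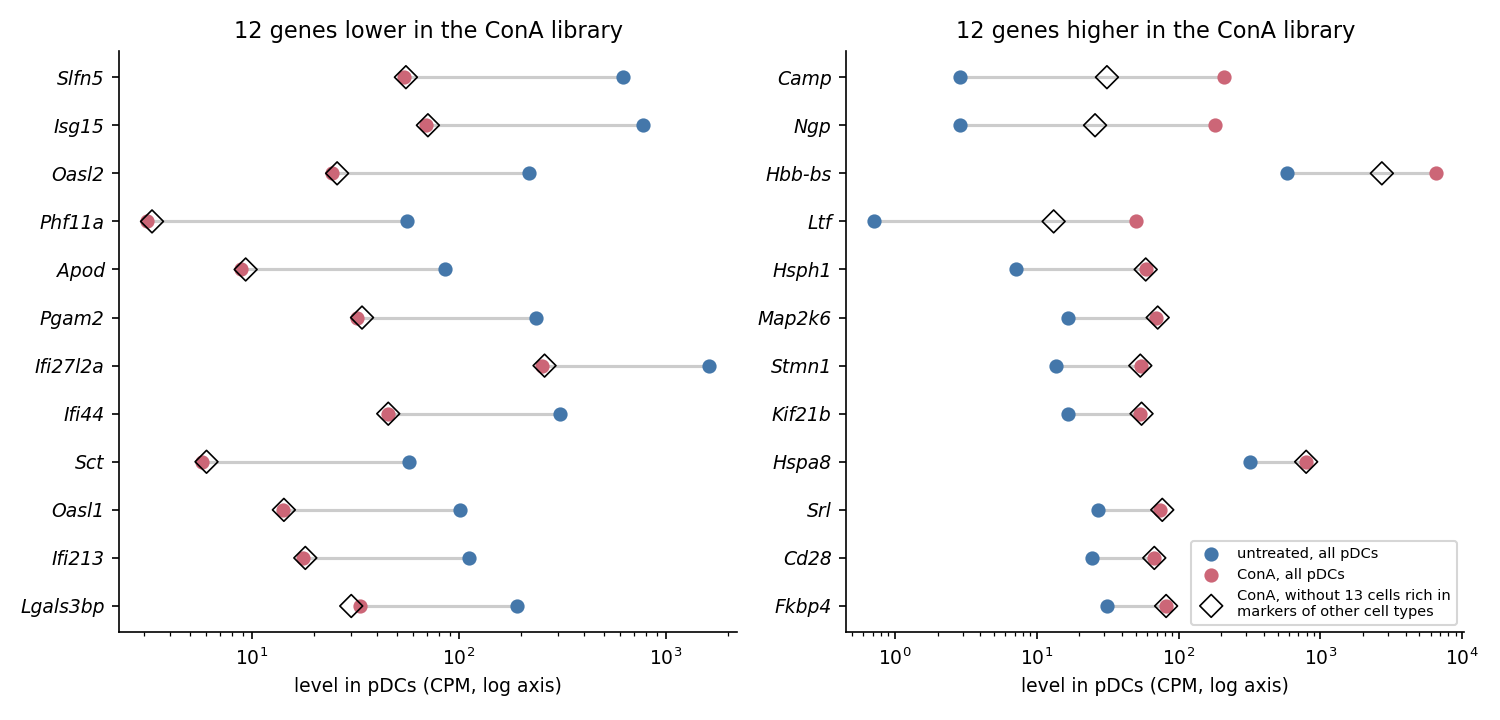
Level in pDCs (CPM, log axis) of the 12 genes with the largest lower ratio (left) and the 12 with the largest higher ratio (right), in untreated (blue) and ConA (red) pDCs; open diamonds give the ConA library without 13 cells rich in markers of other cell types. The diamonds lie on or near the red points except for Camp (31.3 CPM against 209), Ngp, Ltf and Hbb-bs.

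Cell cycle genes were scarce, with 9 of 18 measured. Of these 5 were 2-fold higher, against 1.56% of all genes at 10 CPM or more, and the median was 1.28. The list's median was 1.35 in the conventional dendritic cell gate, 0.58 in the B gate and 0.91 outside the pDC gate. Mki67 had 6 and 79 UMIs and Cenpf 0 and 34. Only 1 of 294 untreated pDCs (0.340%) and 4 of 364 ConA pDCs (1.10%) had at least 3 of 6 cycle genes. The pDC median of the list was 0.25 without predicted doublets, 0.06 with 4 markers required and 0.29 in the second gate.

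Of 11 measured chemokines and cytokines 6 were 2-fold lower (median -1.02), against 2.5% of all genes at 10 CPM or more. The list's median was -0.57 in the B gate, 0 in the conventional dendritic cell gate and -0.22 outside the pDC gate. Ccl4 stood at 550 and 268 CPM, with 156 of 767 untreated UMIs in 1 cell, and Ccl3 at 49.4 and 61.4 CPM, with a log2 ratio (CPM plus 5) of 0.29, or -0.46 without the marker-rich cells. Ccl5, which attracts T cells, stood at 130 and 183 CPM, with 114 of 182 untreated UMIs in 1 cell, and at 48.5 and 163 CPM without the marker-rich cells; outside the gate it was at 903 and 2573 CPM. With the free RNA estimate subtracted it was at 80.7 and 0 CPM, and at 0 in both libraries with the marker-rich cells also left out. Cxcl2 (51.6 and 3.64 CPM) and Il1b (44.4 and 8.85 CPM) were at 601 and 695 CPM in untreated cells outside the gate, so that their pDC level there is of the size of the free RNA estimate. Il12a had 8 and 25 UMIs. Regulatory and tolerance-associated genes had a median of -0.05, with 1 of 16 past 2-fold: Lgals9 (galectin 9) at 176 and 75.5 CPM. Cd274 (PD-L1) stood at 38.0 and 21.3 CPM, Cd200 at 116 and 71.3 CPM, Ahr, the aryl hydrocarbon receptor, at 22.2 and 45.8 CPM (1.04, 0.44 to 1.68) and Tgfb1 at 234 and 240 CPM. Ido1 had 1 and 3 UMIs and Il10 0 and 3, too few for a ratio.

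Inhibitory and adaptor receptors had a median of -0.31, with 1 of 18 past 2-fold: Lilrb4a at 38.7 and 14.6 CPM. Lair1 (1102 and 894 CPM), Cd300c (607 and 419 CPM), Lag3 (151 and 111 CPM) and Klra17 (297 and 236 CPM) were all somewhat lower. Trafficking genes had a median of 0.24 and 0 of 21 past 2-fold. The chemokine receptor Ccr2 (131 and 199 CPM; 0.60, 0.34 to 0.86) lay on the higher side, though it was 226 and 209 CPM in the second gate. Cxcr3 stood at 66.6 and 56.7 CPM and the gut-homing integrin chain Itgb7 at 121 and 178 CPM.

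Transitional dendritic cell genes, which mark cells between pDCs and cDC2, had a median of 0.23 over 10 measured and 0 past 2-fold. Il7r stood at 156 and 256 CPM and Cd4 at 264 and 192 CPM, while Axl had 10 and 2 UMIs and Cx3cr1 11 and 12. In the second gate the median of this list was -0.20. Lipid and cholesterol genes had a median of 0.22 and 0 of 16 past 2-fold, with Hmgcs1 at 104 and 177 CPM, Sqle at 55.2 and 93.1 CPM and Scd2 at 59.5 and 120 CPM.

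Of 29 oxidative phosphorylation genes 26 were lower (44.3% over all genes), 0 of them 2-fold, with a median of -0.17. The same list's median was -0.19 outside the gate, -0.11 in the B gate and -0.15 in the conventional dendritic cell gate. Glycolysis genes had a median of 0.15, and secretory pathway genes 0.07, with Hspa5 (BiP) at 555 and 533 CPM and Xbp1 at 351 and 297 CPM. Immediate-early genes that dissociation can induce had a median of 0.02, with Fosb at 91.7 and 177 CPM and Dusp1 at 144 and 58.3 CPM. Apoptosis genes had a median of -0.03 and 0 of 11 past 2-fold.

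**Figure D5:**
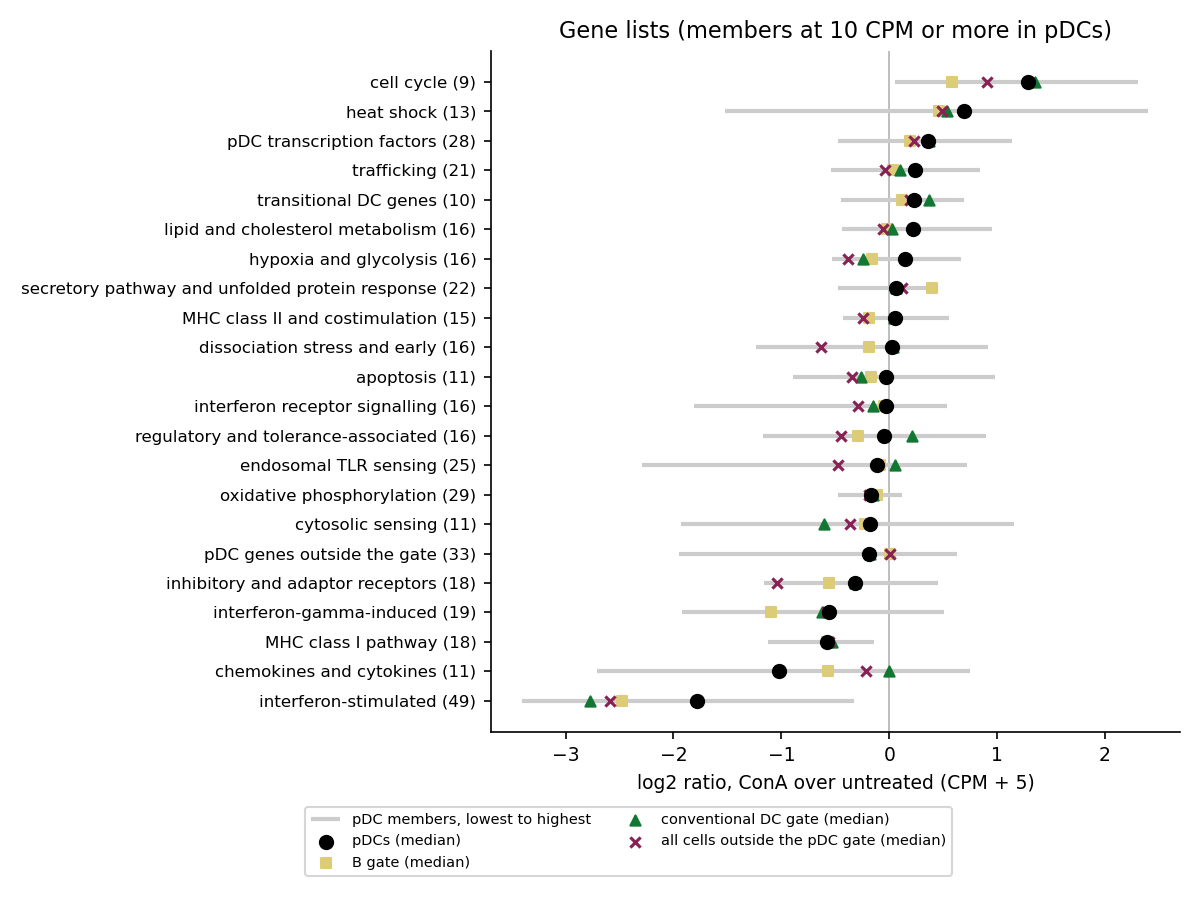
Median log2 ratio of ConA over untreated (CPM plus 5) of 22 gene lists in pDCs (black circles), a B gate (yellow squares), a conventional dendritic cell gate (green triangles) and all kept cells outside the pDC gate (purple crosses); grey lines span the lowest to the highest pDC member, and the number of measured members is in parentheses. The interferon-stimulated list is lowest in each, at -1.78 in pDCs and between -2.48 and -2.77 in the others.

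Some genes differed from the cells around them in how they differed between libraries. The gap between the pDC log2 ratio (CPM plus 5) and that of the cells outside the gate was widest above 0, apart from Camp and Ngp, for Cd300lf (105 and 76.0 CPM in pDCs, 146 and 18.9 CPM outside), Marcks (73.1 and 117 CPM; 268 and 91.9 CPM), Tpd52 (292 and 321 CPM; 576 and 149 CPM), Cers6 (312 and 387 CPM; 621 and 187 CPM) and Neat1 (103 and 180 CPM; 381 and 165 CPM). Lcn2, a neutrophil granule protein, was also in this set at 27.9 and 59.8 CPM in pDCs, and was at 19.7 CPM in the ConA library without the marker-rich cells. Below 0 the gap was widest for Mzb1, a chaperone of secretory B cells and pDCs, at 209 and 188 CPM in pDCs and 90.4 and 309 CPM outside. Gramd3 (94.6 and 40.6 CPM in pDCs), Hsd11b1 (259 and 120 CPM), Gbp6, Ikzf2, Ergic1, Cxcr3 and Jade1 (94.6 and 58.3 CPM) followed. The mix of cells outside the gate differs between the libraries, and its part in these gaps was not tested: neutrophil markers there summed to 22681 and 7270 CPM, and the plasma cell markers to 80.8 and 1266 CPM.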

How the data were processed

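The values are raw UMI counts, as the authors deposited them, for 33696 genes in each barcode. The submitters' processing notes list mm39, Cell Ranger 6.0.1 and Seurat 4.3.0, whereas per the file headers the software version was 8.0.1. The sources used here do not say how introns and multi-mapped reads were counted.

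Counts were summed over the gated cells of each library and scaled to CPM, the share of their total UMIs times 1000000. Ratios between libraries are log2 of CPM plus 5 CPM for rankings, the 2-fold rule and list medians, and plain ratios with exact conditional Poisson 95% intervals for single genes. With 1 library per group no p-value was computed. Genes needed at least 50 CPM in 1 library (10 CPM in the lists), shares have Clopper-Pearson intervals, and detection was compared after thinning cells to 1000 UMIs. Intervals and floors of 3 counts cover counting error only. The B gate required Cd79a, Cd79b and Ms4a1, and the conventional dendritic cell gate Flt3, H2-Ab1 and at least 2 subset markers, both without Siglech.

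The text names the 12 genes in each direction that had the largest ratio and at least 50 UMIs, up to 5 members per list (others of a list are given as examples), the 15 with the largest pDC-to-other ratio and the 8 per direction whose ratio differed most from other cells. Unnamed models, receptor segments, ribosomal and mitochondrial genes, gate genes and genes under 25% of the level outside the gate (possible free RNA) were left out of the first set. Values of some list members are not reported here. The members, the 23 gene lists and these rules were chosen with earlier results of these data known. Marker-rich cells were those with at least 40 neutrophil or monocyte, 100 red cell, or 5 T, NK, basophil or hepatocyte marker UMIs, limits set after seeing the data. Simulated counts for 4021 genes, drawn with Poisson counting error alone, were used to check how the ratio is computed. Of the intervals 95.6% held the true value, and no unchanged gene passed 2-fold (100% of genes made 4-fold different and 0% of those made 1.5-fold different did). The simulation held no variation between cells or animals, so these values follow from its setup and do not check the calls against such variation. Python 3.11.15, numpy 2.4.6, scipy 1.17.1, pandas 2.3.3, scanpy 1.11.5 (Scrublet) and matplotlib 3.10.9 were used.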

Additional observations from a re-analysis of the deposited data

Results flagged for a closer look

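Directions in pDCs were compared with those in the B gate and the conventional dendritic cell gate. Genes needed at least 50 CPM in pDCs and 20 CPM in each other gate, in 1 library or more. The kinds of genes left out of the first named set were also left out here. For 17 genes the pDC direction was opposite to that of both other gates, with counting intervals clear of 0 in all 3. With 5 CPM added to both levels, 5 of the 17 differed by at least 1.25-fold in all 3 gates. The number of genes compared is not given here, and the difference between the gates was not tested. Ccr2, a receptor for inflammatory chemokines, was higher in ConA pDCs (131 and 199 CPM, log2 ratio 0.58) and lower in B-gate cells (79.4 and 32.4 CPM) and conventional dendritic cells (529 and 417 CPM), though in the second pDC gate its ratio was -0.11. Atrnl1 (attractin-like) was likewise higher in ConA pDCs (230.04 and 336 CPM, 0.54) and lower in both other gates (105 and 80.2 CPM; 170 and 112 CPM). Lower in ConA pDCs and higher in both other gates were Lyst, a regulator of lysosome traffic (396 and 304 CPM, -0.38), H2-Q7, a nonclassical MHC class I gene with near-identical copies (583 and 448 CPM, -0.38), and Sh3pxd2a, an adaptor of invasive cell protrusions (235 and 168 CPM, -0.47).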

How the results depend on the processing

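Of 10 alternatives for the pDC share, 9 kept its direction, between a log2 ratio of 0.20 (second gate) and 0.36 (4 markers required), and it was -0.018 with 8 more genes excluded, where 198 and 197 cells remained; the cause was not tested. The planned exclusion of 10 more genes left 3 and 44 cells and gave no value. Genes 2-fold higher were 19 instead of 37 with a constant of 20 CPM, 96 of 6973 genes from 20 CPM, 14 of 2283 from 100 CPM and 67 of 4184 with 8 more genes excluded. Genes 2-fold lower were 171 instead of 113 from 20 CPM, where more genes were counted. Of 264 list medians recomputed, 7 moved: the interferon-stimulated list to -2.23 (second gate) and -1.36 (20 CPM constant), the pDC genes outside the gate to -0.010 (free RNA subtracted), transitional dendritic cell genes to -0.20 (second gate), and cell cycle genes to 0.055 (4 markers required), 0.25 (doublets removed) and 0.29 (second gate). The interferon-stimulated UMIs per cell were the same ratio of 2.63 when thinned to 2000 UMIs and 2.70 unthinned.

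Direction reversed for 10 named genes whose counting interval did not hold 0; 20 others, whose sign changed under at least 1 alternative, had an interval that held 0, Ccl3 among them. Lcn2 turned from 0.98 to -0.44 (doublets removed), -0.68 (8 more genes excluded), -0.38 (marker-rich cells left out) and -0.38 (top cell left out), and Ccr2 to -0.11 in the second gate. With free RNA subtracted Ccnd1 was 0.047, Zc3h12c 0.041, Cd3d -0.59, Trac -0.043, Jchain -0.35 and Ccl5 -4.1, and with marker-rich cells also left out Il1b was 0.12, Lyz2 0.065 and Cd3d -0.13. In that last setting Camp was at 0.00. Marker-rich cells, top cells, the last free RNA setting and the 8 genes were alternatives chosen after seeing the data. No paired analysis was possible because each group has 1 library, and no replicate could be left out.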

Other observations

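How pDCs of one library varied among themselves was described by the variance-to-mean ratio of UMIs per cell after thinning to 1000 UMIs, over 3244 genes with a mean of at least 0.05 such UMIs in both libraries. Its median was 1.04 in the untreated and 1.03 in the ConA library, near the value of 1 that random sampling of molecules gives. Among genes outside the gate, Cd74 varied in both libraries alike (3.29 and 3.24), as did Ly6d (1.91 and 1.74). Ccl4 varied more in the untreated library (5.86 and 1.65), where 1 cell held 156 of its 767 UMIs. Of the gate's genes, Klk1 stood at 2.54 and 1.91 and Tcf4 at 2.48 and 2.13, and the gate itself limits how low these can be in a cell.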
